A study of Saccharomyces cerevisiae with 12 samples.

Results

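The comparison sets budding yeast (Saccharomyces cerevisiae) cells that carry pup2-ts, a temperature-sensitive allele of a core-particle gene of the proteasome, beside WT cells. It uses 8 of the 12 libraries of the series, 4 of pup2-ts and 4 of WT, each of polyadenylated RNA counted per gene. Both groups are MATa and are labelled his3Δ1 and leu2Δ0, together with met15Δ0 and ura3Δ0. The pup2-ts cells differ from WT in more than the allele, which is marked as pup2-ts::URA3: they also carry lys2Δ0 and the cassette can1Δ::LEU2-MFA1pr::His3. All cells grew in YPD, a rich medium with glucose, with no treatment, and the labels used here give no growth temperature. In both groups the library names of replicates 3 and 4 contain the word DNAse while replicates 1 and 2 lack it, although the labels describe DNAse treatment for all. The names of WT replicates 3 and 4 also hold the strain name By4741, which those of WT replicates 1 and 2 lack. The question was which genes outside the proteasome changed in both of these sets of replicates.

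The proteasome degrades proteins that carry chains of ubiquitin. Its core particle is a barrel of alpha and beta rings, and a regulatory particle binds and unfolds the substrates. Ubiquitin is activated by an E1 enzyme, passed to E2 enzymes and attached by ligases, and the ATPase Cdc48 with its cofactors pulls ubiquitinated proteins out of complexes and membranes. In yeast the transcription factor Rpn4 activates proteasome genes and is itself degraded by the proteasome, which makes a feedback loop between proteasome activity and proteasome gene expression.

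Protein-coding genes held 22689004 to 30376071 counts in pup2-ts libraries and 23921986 to 60599134 counts in WT libraries. Levels are given as CPM, a library's counts scaled to a common total, with library sizes adjusted by the trimmed mean of M-values (TMM), and changes as log2 fold changes of pup2-ts over WT with a standard error (SE). A gene is called at an adjusted p under 0.05 in edgeR's quasi-likelihood test. Series text describes the libraries as biological replicates, with no word on separate cultures or clones, so the p-values measure the spread between these libraries. WT replicates 1 and 2 differed from each other more than any other pair that shares a group and a set, with a chi-square of 201 per degree of freedom, against 17.9 for pup2-ts replicates 1 and 2. For several gene lists the median without WT replicate 1 is given as well. WT replicate 2 is then the only WT library of its set and is assumed to vary like the others. For single genes and lists, only effect sizes are given in that setting. Counts called in both sets rose without WT replicate 1 and also without WT replicate 2.

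PUP2 itself had 215, 255, 259 and 262 CPM in the pup2-ts libraries, against 185, 214, 180 and 197 CPM in the WT libraries. The groups did not overlap, and the log2 fold change was 0.35 ± 0.09 (SE, adjusted p = 0.014). Counts do not show the sequence of the allele, so the strain markers were read as well. CAN1, the arginine permease, had 9.75 to 15 CPM in pup2-ts and 177 to 219 CPM in WT, and LYS2 had 0 to 0.208 CPM in pup2-ts and 118 to 209 CPM in WT, as the labels say. MET17, the gene deleted as met15Δ0, had 191 to 585 CPM in pup2-ts and 0 to 0.0939 CPM in WT, so the pup2-ts libraries go against that part of their label. URA3 had 91.8 to 121 CPM in pup2-ts and 3.65 to 4.57 CPM in WT. By counts the strains therefore differ in URA3, LYS2, CAN1 and MET17. By label they also differ in PUP2, HIS3 and LEU2. HIS3 had 86.6 to 117 CPM in pup2-ts and 35.7 to 78.6 CPM in WT, and LEU2 is not among the genes used here. RPN4 transcript was at 150, 155, 91.6 and 87.0 CPM in pup2-ts and at 380, 183, 103 and 111 CPM in WT, with a log2 fold change of -0.58 (adjusted p = 0.070). Over all libraries the groups overlapped, while within each set both pup2-ts libraries stood below both WT libraries. RPN4 was not called in either set. Without WT replicate 1, which leaves WT replicate 2 as the only WT library of its set, the log2 fold change was -0.22.

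With the set of replicates as a factor, 2190 of 5556 genes were called (39.4%), 1038 higher (18.7%) and 1152 lower (20.7%) in pup2-ts, and 279 (5.02%) differed beyond 1.5-fold. Within replicates 1 and 2 alone 1605 genes were called (28.9%), and within replicates 3 and 4 alone 2563 (46.1%). In both sets and in the same direction 1040 genes were called (18.7%), of which 535 were higher (9.63%) and 505 lower (9.09%), and 47 (0.846%) were called in both sets in opposite directions. All 1040 were also called with the set as a factor. Counts of list members called in both sets are to be read beside the 9.63% higher and 9.09% lower. The effect of the strain differed between the sets for 558 genes (10%), among them 145 of the 1040. The count in both sets was 598, 576 and 664 without pup2-ts replicates 1, 2 and 4, and the count of differences between sets was 7 to 58 without any one pup2-ts library, WT replicate 3 or WT replicate 4, 1177 without WT replicate 1 and 2563 without WT replicate 2. The 4 libraries of each group did not overlap for 634 genes that were higher (11.4%) and 588 that were lower (10.6%).

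Of the proteasome, 13 of 14 core-particle genes and all 19 regulatory-particle genes were called higher in both sets, with median log2 fold changes of 1.19 and 1.15. Outside the proteasome lists and the strain markers, 493 of 5501 genes were higher in both sets (8.96%) and 503 were lower (9.14%). Beyond 1.5-fold in both sets, 152 of all 5556 genes were called (2.74%), and outside those lists 61 were higher (1.11% of 5501) and 55 were lower (1%). The 61 higher genes had a median log2 fold change of 1.32, from 0.89 to 2.93, and the 55 lower genes one of -1.63, from -0.98 to -3.85. Libraries of the 2 groups did not overlap for 60 of the 61 and for 52 of the 55.

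**Figure D1:**
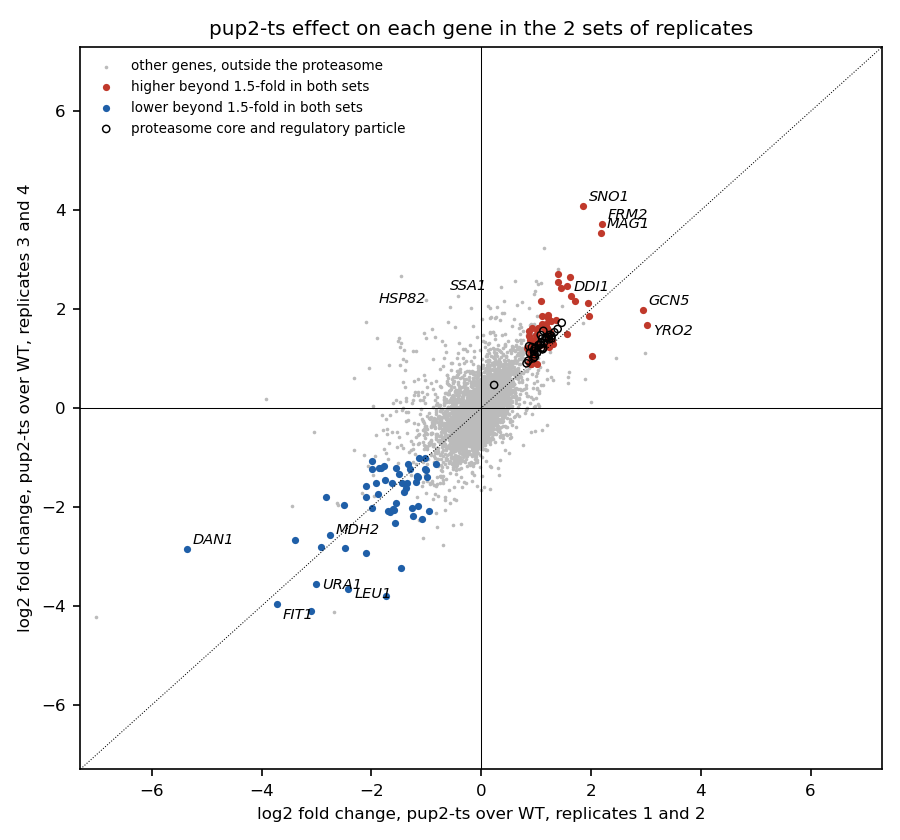
Log2 fold change of pup2-ts over WT for each gene in replicates 1 and 2 (horizontal axis) and in replicates 3 and 4 (vertical axis). Red points are the 61 genes higher and blue points the 55 genes lower beyond 1.5-fold in both sets, open circles are proteasome genes and the dotted line marks equal effects. Falls such as FIT1, URA1 and MDH2 lie near the line, while the heat shock genes HSP82 and SSA1 lie on opposite sides of 0 in the 2 sets, and above 0 in both without WT replicate 1 (HSP82 0.29 and 2.23, SSA1 0.28 and 2.30).

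Cdc48 and its cofactors were higher as a group. Of 16 genes listed, 10 were called higher in both sets and 0 lower, beside 9.63% and 9.09% of all genes, and the median log2 fold change was 0.57, at 0.43 in replicates 1 and 2 and 0.70 in replicates 3 and 4. CDC48, the ATPase itself, had 1820, 1830, 2166 and 2134 CPM in pup2-ts, against 788, 755, 891 and 941 CPM in WT. Every pup2-ts library stood above every WT library, and the effect was the same in the 2 sets, at 1.24 and 1.23. NPL4 and UFD1 encode the pair that brings ubiquitinated substrates to Cdc48. NPL4 had 196, 191, 247 and 244 CPM in pup2-ts and 79.9, 69.5, 71.0 and 71.2 CPM in WT (1.58 ± 0.10, adjusted p = 1.5e-05), and UFD1 rose by a log2 fold change of 1.27. OTU1, a deubiquitinating enzyme that works on Cdc48, was at 158 ± 2.37 CPM in pup2-ts and 78.4 ± 5.86 CPM in WT (SD, n = 4 each). SHP1, another adaptor, rose by 1.06 ± 0.11 (adjusted p = 1.7e-04). The members that did not move with them were DFM1 (0.01), VMS1 (-0.02), WSS1 (-0.04) and UFD2 (0.16), none of them called, and UBX6 at -0.29, which was called lower with the set as a factor and not in both sets.

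Ubiquitin, its activating and conjugating enzymes and its shuttle factors moved less evenly. Of 20 genes, 9 were higher in both sets and 0 lower, with a median of 0.31. DDI1, a shuttle factor and protease that cleaves proteins with long ubiquitin chains, had 167, 169, 277 and 272 CPM in pup2-ts and 67.7, 45.9, 49.1 and 50.3 CPM in WT, a log2 fold change of 2.01 ± 0.20 (adjusted p = 1.7e-04). The other shuttle factors, DSK2 and RAD23, rose by 1.05 and 0.88. UBA1, the E1 enzyme, stood at 644, 612, 1199 and 1057 CPM in pup2-ts and at 342, 309, 470 and 427 CPM in WT (1.14 ± 0.11, adjusted p = 1.5e-04). Among E2 genes, UBC13 rose by 1.18, UBC5 by 1.67 and UBC1 by 0.95, whereas UBC4, UBC7 and CDC34 had 0.10, 0.02 and 0.20 and were not called, and UBC6, at 0.19 (adjusted p = 0.032), was called with the set as a factor but not in both sets. The sources of ubiquitin differed too. UBI4, which encodes a chain of ubiquitin units, had 625, 645, 936 and 903 CPM in pup2-ts and 405, 228, 155 and 154 CPM in WT. RPS31, RPL40A and RPL40B, which encode ubiquitin fused to ribosomal proteins, had -0.29, -0.25 and -0.23 and were not called in both sets.

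Ligases and deubiquitinating enzymes stood closer to the background, with 5 of 23 higher and 1 lower in both sets and a median of 0.09. UBR2, the ligase that marks Rpn4 for degradation, was at 73.2, 69.9, 107 and 97.5 CPM in pup2-ts and at 44.7, 34.95, 50.04 and 53.0 CPM in WT (0.92 ± 0.09, adjusted p = 1.2e-04). SSM4, a ligase of the endoplasmic reticulum, rose by 0.52 and the deubiquitinating enzymes UBP2 and YUH1 by 0.69 and 0.53. Genes of degradation at the endoplasmic reticulum were near the background, with 1 of 16 higher and 2 lower in both sets. Their median in replicates 1 and 2 was 0.09, and 0.01 without WT replicate 1. Vacuolar proteases, the other main route of protein breakdown, had 3 of 10 members higher in both sets and a median of 0.48. In replicates 1 and 2 the median was 0.42, and 0.60 without WT replicate 1. PRC1, carboxypeptidase Y, was at 0.44 ± 0.09 (adjusted p = 0.0044).

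Upstream sequence was read for all 5556 genes, since Rpn4 binds a short element, the proteasome-associated control element (PACE), with the letters GGTGGCAAA. Within 500 bases before the coding start, on either strand, 98 genes (1.76%) held these letters, among them 27 of 33 genes of the proteasome particles (81.8%). Of the 61 genes higher beyond 1.5-fold in both sets outside the proteasome, 15 held them (24.6%), and of the 55 lower genes 0 did. The 15 were SDH9, CUZ1, SGT2, DOC1, ALG13, YPI1, PRD1, TMC1, MEF2, CDC48, PDI1, UBA1, LSB3, GSF2 and AHC2. Read the other way, 70 genes outside the proteasome lists and markers held the letters, and 30 of them were called higher in both sets and 1 lower, with a median log2 fold change of 0.53. NPL4, UFD1, DDI1 and MAG1 did not hold these exact letters in this window. A match of letters is a description and shows no binding.

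The sites of 6 genes are printed because their products act on ubiquitin or on misfolded proteins. Each is read from the R64 genome on the strand that carries the letters, with the PACE letters in capitals, and they lie 88 to 242 bases before the coding start.
CDC48 (chrIV:238786-238816, minus strand): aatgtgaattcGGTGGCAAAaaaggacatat
UBA1 (chrXI:39023-39053, plus strand): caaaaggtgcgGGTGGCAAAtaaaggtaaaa
UBI4 (chrXII:65348-65378, plus strand): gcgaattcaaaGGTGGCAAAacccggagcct
CUZ1 (chrXIV:342314-342344, plus strand): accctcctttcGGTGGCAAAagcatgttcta
TMC1 (chrXV:427456-427486, minus strand): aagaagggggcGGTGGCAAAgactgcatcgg
SGT2 (chrXV:340056-340086, plus strand): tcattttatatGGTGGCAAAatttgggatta
CUZ1 encodes a zinc-finger protein that binds Cdc48 and the proteasome and TMC1 a related protein, and they were at 301 ± 30.6 and 351 ± 8.96 CPM in pup2-ts, against 107 ± 39.9 and 141 ± 28.5 CPM in WT (SD, n = 4 each). SGT2, a cochaperone that hands tail-anchored membrane proteins to the GET pathway, was at 1297 ± 279 CPM in pup2-ts and 480 ± 28.9 CPM in WT. UBI4, described above, was called in both sets but not beyond 1.5-fold in both.

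**Figure D2:**
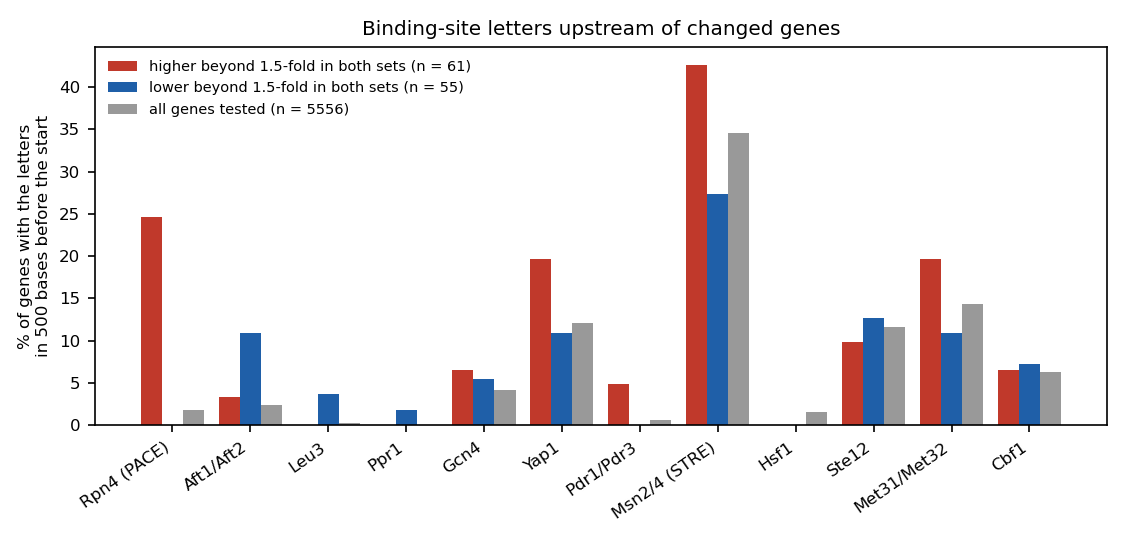
Percentage of genes whose 500 bases before the coding start hold the letters of a binding site, for genes higher (red, n = 61) and lower (blue, n = 55) beyond 1.5-fold in both sets and for all genes tested (grey, n = 5556). The PACE letters stood at 24.6% of the higher genes, 0% of the lower ones and 1.76% of all genes. In the same order the letters of Ste12 stood at 9.84%, 12.7% and 11.6%. Those of Pdr1/Pdr3 stood at 4.92%, 0% and 0.594%, of Aft1/Aft2 at 3.28%, 10.9% and 2.36%, and of Leu3 at 0%, 3.64% and 0.27%. The highest share of each of these rests on few genes, 3 for Pdr1/Pdr3, 6 for Aft1/Aft2 and 2 for Leu3.

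Several folding factors rose beyond 1.5-fold in both sets. They belonged to different chaperone systems, and the genes named here were picked after their values were seen. GET3, the ATPase that carries tail-anchored proteins to the endoplasmic reticulum, had 924 ± 24.2 CPM in pup2-ts and 374 ± 29.5 CPM in WT (SD, n = 4 each), with log2 fold changes of 1.31 and 1.30 in the 2 sets. Among cochaperones of Hsp90, SBA1 rose by 1.30 ± 0.08 (adjusted p = 1.7e-05) and CDC37, which stabilises protein kinases, by 1.07 ± 0.09 (adjusted p = 5.1e-05). CPR1, a cytosolic prolyl isomerase, was at 2350 ± 708 CPM in pup2-ts and 819 ± 294 CPM in WT. PDI1, the disulfide isomerase of the endoplasmic reticulum, rose by 1.23, CCT8, a subunit of the cytosolic chaperonin, by 0.90, and PHB2, a mitochondrial prohibitin, by 1.48. Proteases were also among them, with PCP1, the rhomboid protease of mitochondria, at 1.16 and PRD1, an oligopeptidase, at 1.33.

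Classical heat shock chaperones gave results that turned on WT replicate 1. Of 25 listed Hsf1-type genes, 2 were higher in both sets and 0 lower, and the median was -0.43 in replicates 1 and 2 but 0.81 in replicates 3 and 4. Without that library, WT replicate 2 is the only WT library of its set. The medians were then 0.29 in replicates 1 and 2 and 0.86 in replicates 3 and 4. HSP82, which encodes Hsp90, had 354, 388, 1175 and 1046 CPM in pup2-ts and 1189, 308, 257 and 233 CPM in WT. SSA4, an inducible Hsp70 gene, had 66.8, 80.8, 76.7 and 75.8 CPM in pup2-ts, against 648, 82.4, 49.3 and 51.3 CPM in WT. The WT library of replicate 1 was far above the other 3 for both genes. In replicates 1 and 2 the log2 fold change of HSP82 was -1.01 with that library and 0.29 without it, and that of SSA4 was -2.31 with it and -0.14 without it. Without it HSP82 had 2.23 in replicates 3 and 4. With all libraries, the 2 members called in both sets were the Hsp90 cochaperone gene AHA1, at 123, 128, 243 and 256 CPM in pup2-ts and 96.3, 90.2, 107 and 98.7 CPM in WT, and the coactivator gene MBF1 at 0.57 ± 0.09 (adjusted p = 0.0012). HSC82, the constitutive Hsp90 gene, was called with the set as a factor (0.66 ± 0.14, adjusted p = 0.0074) but not in both sets. The same held for SSA3, at -0.69 ± 0.14. Without WT replicate 1, HSC82 had 0.40 in replicates 1 and 2 and 0.92 in replicates 3 and 4. SSA3 then had -0.49 and -0.45. Genes of the unfolded protein response had 3 of 17 members higher in both sets. Msn2/4-type stress genes had 5 of 25 higher and 1 lower, beside 9.63% and 9.09% of all genes. The medians of these 2 lists in replicates 1 and 2 were 0.13 and 0.22, and without WT replicate 1 they were 0.12 and 0.60.

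The 15 largest rises by the rule for naming spanned DNA repair, redox and amino acid enzymes, membrane proteins and genes of little known function. MAG1, a glycosylase that removes alkylated bases from DNA, had 90.9, 102, 154 and 146 CPM in pup2-ts, against 25.0, 17.2, 11.4 and 13.99 CPM in WT, which is 7.25-fold higher (log2 fold change 2.86 ± 0.29, adjusted p = 2.4e-04). It lies on chromosome V from 455059 to 456098 on the minus strand, beside DDI1 from 456261 to 457704 on the plus strand, so the pair start next to each other and both were among the 15. Of 22 listed DNA damage and ribonucleotide reductase genes, 5 were higher and 3 lower in both sets, beside 9.63% and 9.09% of all genes. The median of the 22 in replicates 1 and 2 was 0.02, and 0.21 without WT replicate 1. RAD52, a recombination protein, was at 154 ± 19.1 CPM in pup2-ts and 81.9 ± 14.2 CPM in WT, whereas HUG1, an inhibitor of ribonucleotide reductase that marks the DNA damage checkpoint, was among the 15 largest falls. HUG1 had 7.85, 9.08, 3.37 and 4.94 CPM in pup2-ts and 76.4, 27.6, 15.8 and 15.3 CPM in WT. RNR3, an inducible reductase gene, was at 9.64, 9.35, 30.6 and 24.5 CPM in pup2-ts and 37.5, 13.6, 19.2 and 19.3 CPM in WT and was not called with the set as a factor.

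FRM2, a nitroreductase, had 17.7, 19.3, 19.2 and 18.4 CPM in pup2-ts and 4.51, 3.54, 1.17 and 1.56 CPM in WT. It belongs to 27 listed genes of Yap1-type oxidative defence, of which 7 were higher and 2 lower in both sets, with a median of 0.30. YAP1, the regulator itself, was at 512, 494, 478 and 450 CPM in pup2-ts and 376, 276, 189 and 202 CPM in WT (0.94 ± 0.15, adjusted p = 0.0016). TRX2, a thioredoxin, rose by 1.08 ± 0.14 (adjusted p = 5.5e-04), GRE2, a reductase of methylglyoxal, by 1.19 and ATR1, an efflux pump, by 1.21 ± 0.06 (adjusted p = 1.0e-05). CCP1, a mitochondrial peroxidase, fell by 0.60 on the log2 scale, and the glutaredoxin, superoxide dismutase and peroxiredoxin genes GRX2, SOD1, SOD2 and TSA1 had -0.18, 0.22, -0.07 and -0.09 and were not called in both sets. YHB1, a flavohemoglobin that removes nitric oxide, is on no list and was picked after its values were seen; it was at 1521 ± 418 CPM in pup2-ts and 515 ± 93.1 CPM in WT.

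**Figure D3:**
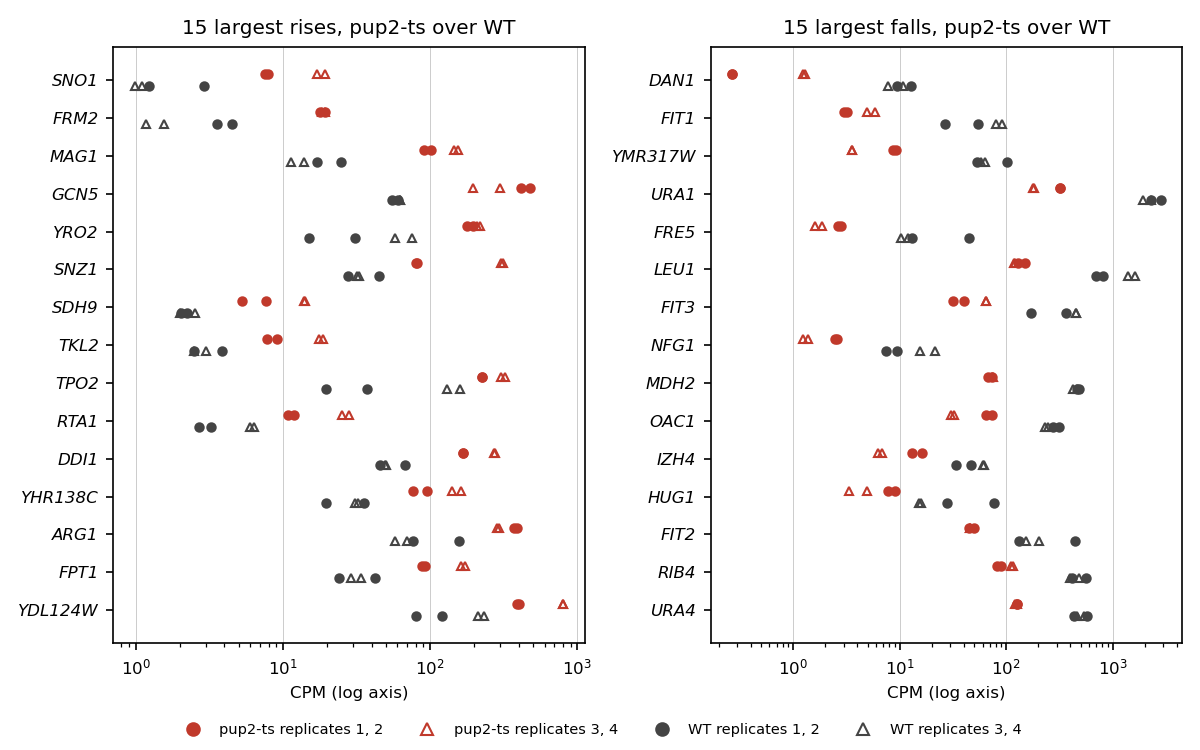
CPM on a log axis in each of the 4 pup2-ts (red) and 4 WT (dark grey) libraries for the 15 largest rises (left) and 15 largest falls (right) that met the rule for naming. Filled circles are replicates 1 and 2 and open triangles replicates 3 and 4. The groups do not overlap for any of the 30, which the rule required, and YRO2 and TPO2 show WT levels that differ by set more than the pup2-ts levels do.

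RTA1, a membrane protein that confers resistance to aminocholesterol, had 11.97, 10.8, 28.1 and 25.4 CPM in pup2-ts and 2.71, 3.23, 6.38 and 5.94 CPM in WT (2.03 ± 0.11, adjusted p = 1.4e-05). Of 17 listed drug transport genes of the Pdr1/Pdr3 type, 5 were higher and 1 lower in both sets, beside 9.63% and 9.09% of all genes. With the set as a factor 6 were higher and 4 lower. The median was -0.12, at -0.15 in replicates 1 and 2 and 0.32 in replicates 3 and 4. PDR1, one of the regulators, rose by 0.86 ± 0.10 (adjusted p = 3.0e-04), HXT9 by 1.99, although it is nearly identical to HXT11 and shares reads with it to an unknown degree, and PDR12, a pump for weak acids, was at 36.8 ± 2.01 CPM in pup2-ts and 72.6 ± 5.99 CPM in WT. YRO2, a membrane protein tied to acid stress, had 179, 197, 219 and 208 CPM in pup2-ts and 31.0, 14.98, 58.1 and 74.8 CPM in WT, and TPO2, a polyamine exporter, had 226, 225, 320 and 303 CPM in pup2-ts and 37.0, 19.6, 130 and 159 CPM in WT. The pup2-ts level of both genes varied less between the sets than their WT level.

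SNO1 and SNZ1, neighbours on chromosome XIII that act in vitamin B6 synthesis, rose together. SNO1 had 7.55, 7.89, 16.9 and 19.2 CPM in pup2-ts and 2.93, 1.24, 0.986 and 1.11 CPM in WT, 7.64-fold higher, and its log2 fold change of 2.93 was 3.63 without WT replicate 1. SNZ1 had 80.9, 80.5, 301 and 311 CPM in pup2-ts and 45.2, 27.8, 31.8 and 32.9 CPM in WT. The rise of each was larger in replicates 3 and 4, by a test of the difference (adjusted p = 0.026 and 0.0094). The other genes of thiamine and vitamin B6 did not follow, since of 20 listed genes these were the only 2 higher in both sets and 6 were lower, among them THI22 (-0.62), THI3 (-0.40) and SNO2 (-0.86). TKL2, a transketolase isozyme, was at 7.75, 9.15, 18.8 and 17.6 CPM in pup2-ts and 3.87, 2.47, 2.49 and 3.01 CPM in WT. It was 1 of 3 of 11 pentose phosphate genes higher in both sets, with GND1 (0.83) and SOL4 (1.02). The median of the 11 in replicates 1 and 2 was 0.34, and 0.53 without WT replicate 1. SDH9, a minor isozyme of succinate dehydrogenase, had 5.29 to 14.2 CPM in pup2-ts and 2.01 to 2.54 CPM in WT, while SDH1 to SDH4 had log2 fold changes between -0.26 and 0.03.

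Further members of the 15 were YDL124W, YHR138C, FPT1 and GCN5. YDL124W, a reductase of keto amides, had 390, 401, 794 and 802 CPM in pup2-ts and 121, 80.7, 231 and 211 CPM in WT, with nearly the same log2 fold change in the 2 sets (1.97 and 1.85). YHR138C, a relative of the protease inhibitor PBI2, was at 119 ± 39.7 CPM in pup2-ts and 29.5 ± 6.78 CPM in WT (SD, n = 4 each). FPT1, a negative regulator of RNA polymerase III assembly, was at 129 ± 44.5 CPM in pup2-ts and 32.2 ± 7.65 CPM in WT. GCN5, the acetyltransferase of the SAGA complex, had 415, 474, 196 and 299 CPM in pup2-ts and 54.8, 60.2, 62.8 and 62.1 CPM in WT. It overlaps PUP2 from the opposite strand, next to the marked allele, so its rise and that marker cannot be told apart. Of 19 SAGA genes 3 were higher and 2 lower in both sets, beside 9.63% and 9.09% of all genes. ADA2 and NGG1, partners of GCN5 in the acetyltransferase module, were at -0.50 and 0.50. The median of the 19 in replicates 1 and 2 was 0.15, and 0.22 without WT replicate 1.

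Arginine synthesis genes rose and arginine degradation genes fell. Of 12 listed genes, 8 were higher and 2 lower in both sets, and the 2 lower ones, CAR1 and CAR2, encode arginase and the next enzyme of degradation. ARG1, argininosuccinate synthetase, had 374, 388, 294 and 283 CPM in pup2-ts and 156, 76.7, 57.9 and 69.9 CPM in WT (1.94 ± 0.21, adjusted p = 3.1e-04). ARG3 rose by 1.75, ARG56 by 0.90 and ARG8 by 0.79, whereas CPA1, a subunit of carbamoyl phosphate synthetase, and ARG2, which starts the pathway, had 0.34 and -0.10 and were not called. CAR2 was at 4.35, 4.33, 15.7 and 16.8 CPM in pup2-ts and 18.5, 13.5, 67.5 and 41.3 CPM in WT. Over all 4 libraries the groups overlap for CAR2, while within each set both pup2-ts libraries stood below both WT libraries in replicates 1 and 2 and again in replicates 3 and 4. The pup2-ts strain lacks the arginine permease CAN1 by label and by its counts, so these changes and that marker cannot be told apart.

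Leucine and branched-chain amino acid synthesis was lower. Of 12 listed genes 7 were lower in both sets and 0 higher, with a median of -0.70. LEU1, isopropylmalate isomerase, had 129, 150, 121 and 117 CPM in pup2-ts and 700, 809, 1610 and 1385 CPM in WT (-3.04 ± 0.25, adjusted p = 5.6e-05). OAC1, the carrier that exports isopropylmalate from mitochondria, had 64.9, 73.3, 30.6 and 32.5 CPM in pup2-ts and 276, 316, 248 and 231 CPM in WT, and BAT1, the mitochondrial transaminase, was at 200 ± 26.3 CPM in pup2-ts and 717 ± 347 CPM in WT. LEU4, the first enzyme of the leucine branch, fell by 0.56 on the log2 scale and LEU9, its paralog, by 0.72, whereas LEU3, the regulator, was at -0.06 and ILV6 at 0.13, neither called. For 8 of the 12 the effect differed between the sets, beside 10% of all genes. Over all genes the count of such differences was not firm when single libraries were left out. The known palindromic letters of the Leu3 site were upstream of 4 of the 12 genes (33.3%, LEU1, ILV2, ILV5 and BAT1) and of 0.27% of all genes. Those 4 had a median of -1.21 and the other 8 one of -0.35. Of the 4, 3 were lower in both sets, and of the 8, 4 were. By label the pup2-ts cells have LEU2 back and WT cells do not, so the fall and that marker cannot be told apart.

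The letters of Gcn4, TGACTCA, the general activator of amino acid synthesis, were upstream of 10 of 12 arginine genes (83.3%) and 8 of 12 leucine genes (66.7%), against 4.16% of all genes. With the letters, 8 arginine genes were higher and 1 lower in both sets, and 5 leucine genes were lower and 0 higher. Genes with the same letters thus moved in opposite directions in the 2 pathways. Lysine synthesis was lower too, with 4 of 10 genes lower in both sets and 0 higher; LYS21, LYS4, LYS9 and LYS14 had -0.50, -0.51, -0.72 and -0.31. The strains also differ in LYS2, which cannot be told apart from these changes.

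**Figure D4:**
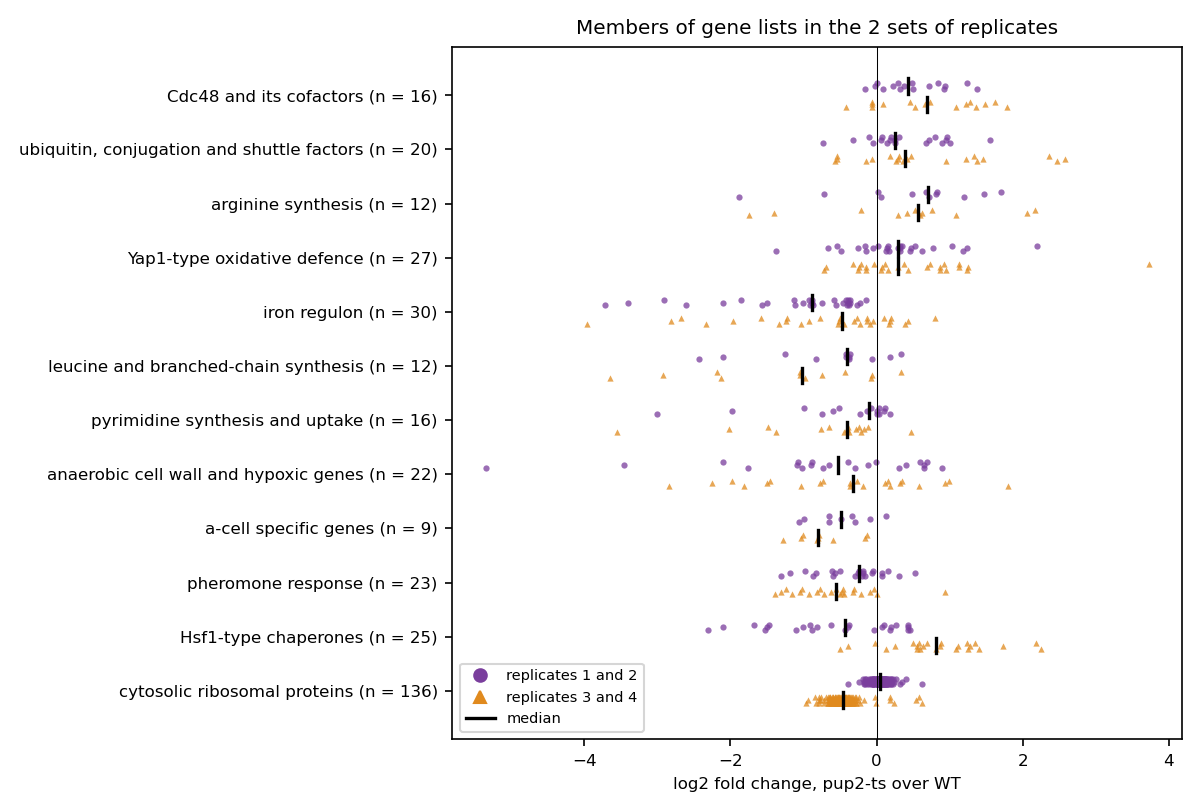
Log2 fold change of pup2-ts over WT for each member of 12 gene lists in replicates 1 and 2 (purple circles) and in replicates 3 and 4 (orange triangles), with the median of each as a black bar. The Cdc48 list has both medians above 0 and the iron and leucine lists both below 0, while the Hsf1-type list has medians of -0.43 and 0.81, which were 0.29 and 0.86 without WT replicate 1.

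Pyrimidine synthesis fell at single steps. URA1, dihydroorotate dehydrogenase, had 317, 319, 181 and 177 CPM in pup2-ts and 2273, 2817, 1917 and 2281 CPM in WT (-3.28 ± 0.16, adjusted p = 8.8e-06). URA4, dihydroorotase, had 128, 126, 122 and 126 CPM in pup2-ts and 429, 576, 461 and 543 CPM in WT. On the log2 scale the transporters FUI1 for uridine and FUR4 for uracil fell by 1.24 and 1.06, and URA2, the first enzyme, by 0.64. The other 11 of 16 listed genes were not called in both sets, among them PPR1, the regulator, at -0.22 and URA5 at -0.21. WT cells lack URA3 by label and the pup2-ts allele carries it, so these falls and that marker cannot be told apart.

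MDH2, cytosolic malate dehydrogenase, gave the lowest adjusted p among the 30 largest changes. It had 72.9, 68.3, 75.6 and 73.9 CPM in pup2-ts and 463, 488, 428 and 458 CPM in WT (-2.66 ± 0.07, adjusted p = 1.1e-07), with -2.75 and -2.57 in the 2 sets. The libraries of each group lay close together. Its isozymes did not fall with it: MDH1 of mitochondria rose by 0.93 ± 0.09 (adjusted p = 1.2e-04), and MDH3 of peroxisomes was at 0.34 and not called in both sets. Other genes of malate and its transport, chosen after their values were seen, were also lower beyond 1.5-fold in both sets. DIC1, the dicarboxylate carrier of mitochondria, was at 42.4 ± 21.0 CPM in pup2-ts and 114 ± 29.7 CPM in WT, and MAE1, malic enzyme, at 156 ± 40.8 CPM in pup2-ts and 370 ± 150 CPM in WT. Of 25 listed genes of the tricarboxylic acid and glyoxylate cycles, 1 was higher and 4 lower in both sets. Over all genes the shares were 9.63% and 9.09%. ACO1, aconitase, was at -0.78. The median of the 25 in replicates 1 and 2 was -0.03, and 0.02 without WT replicate 1. RIB4, lumazine synthase of riboflavin synthesis, had 82.7, 90.2, 111 and 116 CPM in pup2-ts and 414, 566, 398 and 483 CPM in WT.

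Iron uptake genes were lower. Yeast takes up iron bound to siderophores, which cell-wall mannoproteins hold and ARN transporters import, or after reduction at the surface, by the oxidase Fet3 with the permease Ftr1, and the factors Aft1 and Aft2 activate these genes when iron is scarce. Of 30 listed genes 15 were lower in both sets and 0 higher, with a median of -0.60, at -0.88 in replicates 1 and 2 and -0.47 in replicates 3 and 4. Without WT replicate 1 the median in replicates 1 and 2 was -0.47. FIT1, a cell-wall mannoprotein, had 3.20, 2.99, 5.93 and 4.98 CPM in pup2-ts and 54.5, 26.7, 90.8 and 80.6 CPM in WT (-3.85 ± 0.23, adjusted p = 1.5e-05). FIT3 had 40.2, 31.4, 64.8 and 64.5 CPM in pup2-ts and 368, 172, 457 and 448 CPM in WT, and FIT2 had 49.6, 45.1, 45.7 and 45.5 CPM in pup2-ts and 444, 133, 153 and 203 CPM in WT. FRE5, a putative ferric reductase next to FIT3, was at 2.66, 2.83, 1.87 and 1.62 CPM in pup2-ts and 44.6, 13.1, 10.3 and 12.03 CPM in WT, and its log2 fold change of -3.06 was -2.45 without WT replicate 1.

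Both routes of uptake were affected, at different sizes. Among siderophore transporters ARN2 and ARN1 fell by 1.84 and 1.54, while SIT1 (-0.72) and ENB1 (0.02) were not called in both sets. On the reductive route FET3 was at 435, 419, 230 and 227 CPM in pup2-ts and 965, 749, 540 and 540 CPM in WT, and FTR1 fell by 0.93. FRE4, a reductase, fell by 1.42 ± 0.09 (adjusted p = 1.5e-05), and AFT1 itself by 0.70. FRE1, FRE2 and FRE6, other reductases, had -0.83, -0.83 and -0.38 and were lower in both sets, whereas FET5, FTH1, SMF3 and CCC2, which move iron or copper across inner membranes, had 0.03, -0.08, -0.25 and 0.20 and were not called in both. ISU2, a scaffold for iron-sulfur clusters, was at 44.1, 47.8, 17.9 and 18.5 CPM in pup2-ts and 138, 135, 86.4 and 96.7 CPM in WT, and its paralog ISU1 was at -0.36 and not called in both sets.

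The Aft letters TGCACCC were within 500 bases of the start of 22 of the 30 iron genes (73.3%) and of 2.36% of all genes. With the letters 11 of 22 were lower in both sets, and without them 4 of 8. The median log2 fold change was -0.71 with the letters and -0.37 without. Some of these sites are printed, from the cell-wall genes and from each route of uptake, with the Aft letters in capitals, read from the R64 genome on the strand that carries them. FIT3 and FRE5 are transcribed away from each other, and both of the sites shown for them lie in the stretch between them.
FIT1 (chrIV:1505065-1505093, plus strand): attcattttttTGCACCCtttcctagaac
FIT3 and FRE5 (chrXV:1061222-1061250, plus strand): ccccattttttTGCACCCtttcctagaat
FIT3 and FRE5 (chrXV:1061323-1061351, minus strand): agattttttttTGCACCCtgtttgttccg
ARN2 (chrVIII:10643-10671, plus strand): gaactaagaacTGCACCCattttctgatt
FET3 (chrXIII:388560-388588, plus strand): atcttcaaaagTGCACCCatttgcaggtg

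Cell-wall and membrane genes of anaerobic growth were lower. Of 22 listed genes, 10 were lower and 2 higher in both sets. DAN1, a mannoprotein made without oxygen, had 0.270, 0.268, 1.28 and 1.25 CPM in pup2-ts and 12.7, 9.55, 10.7 and 7.75 CPM in WT (-3.85 ± 0.45, adjusted p = 3.5e-04). TIR4 was at 15.6 ± 2.94 CPM in pup2-ts and 47.1 ± 6.95 CPM in WT, DAN4 fell by 0.83, and PAU5 by 1.96, although PAU genes form a family of close copies whose reads cannot be fully told apart. TIR1 and TIR3 did not share the fall, at 0.42 and 0.49. ROX1, the repressor of hypoxic genes, fell by 1.28, OLE1, the fatty acid desaturase, was at 476 ± 96.2 CPM in pup2-ts and 1533 ± 420 CPM in WT, and AAC3 and HEM14 were the 2 higher members, at 0.84 and 0.49. IZH4, a membrane protein of zinc homeostasis, had 16.1, 13.1, 6.25 and 6.78 CPM in pup2-ts and 33.6, 46.4, 60.8 and 62.1 CPM in WT, and its relative IZH1 was at 106 ± 38.0 CPM in pup2-ts and 298 ± 13.7 CPM in WT. Of 16 zinc and copper genes 5 were lower and 1 higher in both sets; ZRT1, the zinc importer, was the one that rose (0.99 ± 0.11, adjusted p = 2.7e-04), with COT1, a vacuolar transporter, and ADH4 at -0.47 and -0.48.

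Mating genes were lower in cells that were MATa by label in both groups. Of 9 listed a-cell specific genes 5 were lower in both sets and 0 higher, with a median of -0.56. MFA1, a gene for a-factor, had 49.99, 57.8, 31.2 and 40.1 CPM in pup2-ts and 96.5, 119, 96.4 and 77.6 CPM in WT (-1.14 ± 0.12, adjusted p = 2.5e-04), and BAR1, the protease that degrades alpha-factor, AGA2 and MFA2 fell by 1.04, 0.73 and 0.83. The pup2-ts cassette carries an MFA1 promoter fragment (MFA1pr), and whether it adds reads to MFA1 was not tested. The 7 markers of a cells summed to 682 to 1098 CPM in pup2-ts and 1204 to 1666 CPM in WT, the 4 of alpha cells to 38.0 to 49.3 CPM in pup2-ts and 44.2 to 59.9 CPM in WT, and 7 meiotic ones to 83.9 to 89.99 CPM in pup2-ts and 78.5 to 116 CPM in WT. Marker RNA of a cells was thus the main mating-type RNA in every library and lower in each pup2-ts library than in any WT library. In bulk RNA, fewer cells with a transcript and less of it per cell cannot be told apart. Among alpha-cell genes STE3 was higher (0.75) and SAG1 lower (-0.47) in both sets, and MF(ALPHA)1 was at 0.369 to 0.978 CPM in pup2-ts and 0.282 to 1.30 CPM in WT.

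Of 23 pheromone response genes 8 were lower and 1 higher in both sets. MSB2, a mucin that senses at the surface, was at 74.3 ± 21.1 CPM in pup2-ts and 185 ± 68.7 CPM in WT, and TEC1, a factor of filamentous growth, at 20.9 ± 0.777 CPM in pup2-ts and 50.5 ± 7.64 CPM in WT. FIG2, an adhesin, was at 27.1 ± 2.48 CPM in pup2-ts and 54.2 ± 8.03 CPM in WT, and KAR4, a factor of nuclear fusion, was the one that rose, by 0.73. NFG1, a negative regulator of the filamentous pathway, had 2.46, 2.57, 1.25 and 1.38 CPM in pup2-ts and 7.39, 9.45, 21.4 and 15.5 CPM in WT. YMR317W, of unknown function, had 8.73, 9.35, 3.57 and 3.55 CPM in pup2-ts and 101, 53.0, 63.6 and 58.6 CPM in WT. Of 16 meiotic genes 2 were higher and 5 lower in both sets, with HOP1 (0.88) and DIT1 (0.92) higher and RED1 (-0.70) and SPS4 (-0.93) among the lower ones.

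Genes of nitrogen use were mostly lower where they changed, with 6 of 23 lower and 1 higher in both sets. Their median in replicates 1 and 2 was -0.41, and -0.16 without WT replicate 1. DUR3, a urea transporter, fell by 1.05 ± 0.13 (adjusted p = 5.0e-04), and DAL7, UGA3 and GDH2 by 0.55, 0.58 and 0.56. Cytosolic ribosomal proteins had 1 of 136 genes higher and 0 lower, with medians of 0.05 in replicates 1 and 2 and -0.47 in replicates 3 and 4, and ribosome biogenesis had 0 of 57 called in both sets and 8 lower with the set as a factor. Mitochondrial ribosomal proteins had 9 of 67 higher and 0 lower in both sets, and 30 higher and 0 lower with the set as a factor, beside 18.7% and 20.7% of all genes, with a median of 0.24. Of these MRPL50, MRPL17 and MRPL6 rose by 0.63, 0.47 and 0.47; MRP8 (0.83), which is on the list by its name, is not an established ribosomal protein, and its groups overlapped. In replicates 1 and 2 the median of mitochondrial ribosomal proteins was 0.08, and 0.11 without WT replicate 1. That of the cytosolic ones was 0.05, and -0.16 without it. Histones had 0 of 11 called in both sets and 1 higher with the set as a factor, and glycolysis had 1 of 17 higher in both sets. The glycolysis median in replicates 1 and 2 was 0.84, and 0.43 without WT replicate 1. The respiratory chain and ATP synthase had 8 of 34 genes lower and 0 higher in both sets, with a median of -0.24. In replicates 1 and 2 their median was -0.09 with or without WT replicate 1.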

How the data were processed

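RNA of 8 libraries, 4 of pup2-ts and 4 of WT, was compared; the 12 libraries of the series entered only an alternative. The authors deposited raw read counts per annotated feature, normalized by nothing, made, per the submitters' processing notes, on sacCer3 with the aligner STAR (2.5.2b) and the counter featureCounts (Subread 1.5.1). How reads with several matches were counted is not given in the sources used here, so how close copies divide their reads is unknown. Of 12768 features, 5585 matched protein-coding genes by locus tag, which held 85.7% to 87.4% of counts, and the rest were left out.

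Genes passing filterByExpr were scaled by TMM and fitted by edgeR's robust quasi-likelihood method (edgeR 4.0.16, R 4.3.3). The test was the F test of that fit and two-sided, with the word DNAse in the library name as a factor, and 5556 genes were tested with Benjamini-Hochberg adjustment over all of them. A second fit with a mean for each group and set gave the effect in each set and the difference between sets. Genes called in both sets passed in each with the same sign. Beyond 1.5-fold was tested with glmTreat, and each SE was taken from the fold change and its F statistic. With 2 libraries per group and set, the spread is shared over all 8. The tests were tried on simulated data.

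Named genes were the 15 largest rises and falls among those called in both sets, at 10 CPM or more in a group and with groups that did not overlap, and, for each list described, at most 4 members ranked by adjusted p. Genes named outside it are list members given as values or are marked as picked after their values were seen. Members, lists and rules were chosen with earlier results of these data known, and the upstream letters were searched after the calls were seen. No test of a list was made. Sites were read from RefSeq's R64 genome, in which 5581 of 5585 coding intervals begin with ATG and every deposited interval lies inside its chromosome.

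Libraries with the same replicate number deviated together from their group means (correlations 0.32, 0.73, 0.61 and 0.58), which counts as pairing here. Around the means of group and set the correlations were -0.03 to 0.01, so the pairing seen is that of the sets. Replicates of a group differed by more than sampling noise, so none was counted as a duplicate. Alternatives were other factors and filters, DESeq2 1.42.0, a replicate block, no set factor, all libraries and each library left out. Python 3.11.15 was used with pandas 2.3.3 for tables and matplotlib 3.10.9 for plots.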

Additional observations from a re-analysis of the deposited data

Results flagged for a closer look

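The effect of pup2-ts on 18 of the 109 named genes differed between the sets of replicates by a test of the difference itself. Over all genes the same test called 558 of 5556 (10%), among them 145 of the 1040 called in both sets. That count of 558 ranged from 7 to 2563 when single libraries were left out, so it is not firm. As log2 differences of the effect in replicates 3 and 4 minus that in replicates 1 and 2, the vitamin B6 genes SNO1 and SNZ1 had 2.22 and 2.10, FRM2 1.53, the neighbours MAG1 and DDI1 1.35 and 0.90, TKL2 1.30, the cochaperone gene AHA1 0.85 and RAD52 0.64, so that their rises were larger in replicates 3 and 4. TPO2 had -1.88, a smaller rise there. Among falls, LEU1, BAT1 and OAC1 of leucine synthesis had -1.22, -0.94 and -0.82, NFG1 had -2.06, the zinc genes IZH4 and IZH1 -1.79 and -0.84 and ISU2 -0.76, all larger falls in replicates 3 and 4, and DAN1 had 2.5, a smaller one. LYS2, deleted in pup2-ts by label, had 4.92, which rests on 0 to 0.208 CPM in pup2-ts. All of these kept 1 direction in the 2 sets.

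In 10 cases 1 library was marked as apart from the other 3 of its group. The mark compares its gap to the nearest library with the range of the group, so it can fall on small differences. FIT2 is such a case, at 49.6 CPM against 45.1 to 45.7 CPM. WT replicate 1 was above the others for SNO1 (2.93 CPM), FRE5 (44.6 CPM), NPL4 (79.9 CPM) and SSA3 (85.2 CPM) and below them for TRX2 (131 CPM) and LYS4 (168 CPM). WT replicate 2 was low for FIG2 (42.2 CPM). Of pup2-ts libraries, replicate 1 was high for FIT2 (49.6 CPM) and low for PUP2 (215 CPM), and replicate 4 was low for PAU5 (1.06 CPM). About 1 in 20 groups is marked this way by chance if its 4 libraries vary alike. The sets differ, so that rate is a rough guide. In all, 109 genes were looked at in 2 groups each.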

How the results depend on the processing

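Without the set of replicates as a factor 663 genes were called, against 2190 with it, and 133 against 279 beyond 1.5-fold. The count called in both sets was 599 with a separate fit of each set, against 1040, and 152 where both had to pass 1.5-fold. Genes whose effect differed between the sets numbered 932 by DESeq2 and 925 with 11 libraries (all but the library labelled rpn5-ts replicate 1, an alternative chosen after seeing the data), against 558. With each library left out in turn, counts ranged from 1531 to 2824 (set as a factor), 216 to 364 (beyond 1.5-fold), 576 to 1551 (both sets) and 7 to 2563 (difference between sets); the lone library of its group and set is then assumed to vary like the others. The count in both sets was 1551 without WT replicate 1 and 1508 without WT replicate 2, and 598, 576, 695 and 664 without pup2-ts replicates 1 to 4. The count of differences is thus not firm. With the replicate block as a pairing, the counts were 1624, 220, 960 and 400. No named gene reversed under any alternative run; without the set factor 27 of 109 lost their call, and with 12 libraries 2. Of the 30 largest changes, FIT2, HUG1, FRE5 or TPO2 were not called in both sets without 1 or another library, and SDH9, TKL2 and ARG1 with 12 libraries. The block changed no call of a named gene. At the other end, genes under 10 CPM rest on few reads, and the filter at 10 CPM leaves out SNO1, SDH9, TKL2, DAN1, FRE5 and NFG1.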

Other observations

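Transcription factors were among the 55 genes lower beyond 1.5-fold in both sets, and those named here were picked after their values were seen. CUP9, a homeodomain repressor of peptide uptake that is itself degraded through the ubiquitin system, was at 31.0 ± 1.23 CPM in pup2-ts and 84.2 ± 8.57 CPM in WT (SD, n = 4 each), a log2 fold change of -1.44 ± 0.06 (adjusted p = 3.0e-06). ADR1, an activator of genes for ethanol and fatty acid use, was at 29.8 ± 5.72 CPM in pup2-ts and 96.4 ± 21.3 CPM in WT. DOT6, which represses ribosome biogenesis genes, was at 127 ± 90.3 CPM in pup2-ts and 361 ± 265 CPM in WT; its SDs come from a difference between the sets, and its log2 fold changes within them were -1.44 and -1.52. RPI1 and SMP1 had -1.81 ± 0.17 and -1.23 ± 0.10. CLB1, a B-type cyclin of G2/M, was at 49.5 ± 24.6 CPM in pup2-ts and 129 ± 16.3 CPM in WT.

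AFB1 and SPO22 were also picked after their values were seen. AFB1, a blocker of a-factor made by alpha cells, was lower, at 9.43 ± 1.57 CPM in pup2-ts and 33.1 ± 2.13 CPM in WT, in cells labelled MATa. SPO22, a meiosis-specific gene, was at 15.2 ± 0.249 CPM in pup2-ts and 5.35 ± 1.22 CPM in WT, with log2 fold changes of 1.28 and 1.75 in the 2 sets. The median log2 fold change of a chromosome's genes ranged from -0.088 on chromosome VIII to 0.053 on chromosome I, so no whole chromosome stood apart.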
